A study of Homo sapiens with 4 samples.

Results

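The genes described here are the coactivators YAP and TAZ, their TEAD partners, the LATS kinases and a pair of target genes. They were taken by symbol, with no cutoff on their values but with earlier results of these data known, as the 10 genes that the count table lists as YAP1, WWTR1, TEAD1, TEAD2, TEAD3, TEAD4, LATS1, LATS2, AMOTL2 and ANKRD1, out of 59050 genes in all. All 10 had enough reads to be tested, among 16516 genes that passed the filter on low counts. They were measured by RNA sequencing in RCC4, an established human clear cell renal cell carcinoma line. Cells carried either a doxycycline-inducible lentiviral hairpin against PML (shPML) or a scrambled hairpin (shCtrl), and both groups received doxycycline in medium with tetracycline-free serum. Each group had 2 libraries, numbered replicate 1 and 2, and the study describes 2 experiments with independent lentiviral infections. The replicate number is taken here to mark the experiment, which the labels do not state. The model is thus a single line with a single hairpin, which lowers PML without removing it.

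YAP1 encodes YAP and WWTR1 encodes TAZ, related transcriptional coactivators that do not bind DNA themselves and reach their target genes through the TEAD factors. In the Hippo pathway the kinases MST1 and MST2 activate LATS1 and LATS2, which phosphorylate YAP and TAZ so that they stay in the cytoplasm or are degraded. AMOTL2 encodes a junction protein that holds YAP back and ANKRD1 a nuclear ankyrin-repeat protein, and both genes are known targets of YAP and TAZ, as is LATS2. Since the pathway acts on proteins, the levels of these mRNAs do not measure how active YAP and TAZ were.

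The letters GGAATG, or CATTCC on the other strand, are the core of the motif that TEAD factors recognise. Of the 8 genes with a promoter window in RefSeq (250 bases before to 50 after a start site, GRCh38.p14), 4 held this core on either strand in at least 1 window, and TEAD1 and TEAD4 had no entry. For comparison, 16.7% of the 27305 genes with such a window held it. The windows below are shown because they belong to the target genes whose levels are compared later and to YAP1, and CCN2, another textbook target, stands beside them. Each runs 5′ to 3′ along the gene, with the core in capitals.
ANKRD1, chr10:90921038-90921337, minus strand: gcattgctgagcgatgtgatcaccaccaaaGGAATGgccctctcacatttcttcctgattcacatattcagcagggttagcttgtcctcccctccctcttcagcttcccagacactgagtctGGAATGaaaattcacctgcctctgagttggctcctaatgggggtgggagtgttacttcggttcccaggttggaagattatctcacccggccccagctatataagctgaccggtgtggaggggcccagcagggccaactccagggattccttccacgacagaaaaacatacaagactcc
AMOTL2, chr3:134374398-134374697, minus strand: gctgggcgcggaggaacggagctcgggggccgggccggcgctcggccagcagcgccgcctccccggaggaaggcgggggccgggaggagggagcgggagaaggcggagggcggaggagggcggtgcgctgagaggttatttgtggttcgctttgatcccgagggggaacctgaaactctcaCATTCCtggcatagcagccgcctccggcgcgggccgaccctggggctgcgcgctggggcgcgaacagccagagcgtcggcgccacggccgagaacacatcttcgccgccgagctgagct
LATS2, chr13:21061537-21061836, minus strand: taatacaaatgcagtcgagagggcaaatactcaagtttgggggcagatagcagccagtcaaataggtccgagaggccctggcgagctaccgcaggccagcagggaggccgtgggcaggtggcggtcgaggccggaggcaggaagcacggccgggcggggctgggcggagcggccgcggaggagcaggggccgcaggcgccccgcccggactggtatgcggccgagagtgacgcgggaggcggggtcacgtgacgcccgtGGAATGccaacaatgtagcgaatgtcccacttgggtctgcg
YAP1, chr11:102110197-102110496, plus strand: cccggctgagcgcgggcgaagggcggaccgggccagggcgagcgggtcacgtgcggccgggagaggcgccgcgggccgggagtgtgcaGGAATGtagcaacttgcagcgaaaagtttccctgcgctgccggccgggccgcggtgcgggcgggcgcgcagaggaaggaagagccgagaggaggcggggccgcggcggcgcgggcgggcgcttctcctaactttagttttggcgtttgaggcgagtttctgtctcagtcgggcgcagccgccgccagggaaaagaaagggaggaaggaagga
CCN2, chr6:131951323-131951622, minus strand: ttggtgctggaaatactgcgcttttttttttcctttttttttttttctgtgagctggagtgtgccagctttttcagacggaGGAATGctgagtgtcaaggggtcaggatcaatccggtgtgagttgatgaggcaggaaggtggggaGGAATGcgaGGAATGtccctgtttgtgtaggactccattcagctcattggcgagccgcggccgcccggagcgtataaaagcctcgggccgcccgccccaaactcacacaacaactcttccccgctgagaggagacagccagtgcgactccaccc
The window of ANKRD1 held the core at 2 places and that of CCN2 at 3, whereas AMOTL2, LATS2 and YAP1 held it at 1. The core of LATS2 lay just after the start site, and the others lay before it. The AP-1 motif, searched on both strands as TGACTCA and TGAGTCA, was in none of the members' windows and in 4.95% of all 35116 windows. A match of letters describes the window and is not evidence that a factor was bound there in these cells.

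The libraries held between 27781193 counted reads (shPML replicate 2) and 69870617 (shPML replicate 1). PML itself was at 93.1 and 136 CPM in shCtrl and at 54.9 and 87.6 CPM in shPML, in replicates 1 and 2, which is 58.9% and 64.4% of the control of the same experiment. Its log2 fold change was -0.70 ± 0.11 (SE, adjusted p = 4.2e-07 in the edgeR test given with the first result). CPM are counts relative to library size, after scaling of library sizes by the TMM method. All 8 markers fixed for a renal carcinoma line had reads, PAX8 at 302 to 427 CPM among them, although LHX1 was low at 0.70 to 2.58 CPM. One library stood apart. In shPML replicate 2 the leukocyte genes LYZ, CD14 and PTPRC had 2349, 1177 and 346 counts, against at most 7 counts of any of them in any other library. The summed level of the leukocyte markers was 141 CPM there and 0.111 to 0.181 CPM in the other 3 libraries, and CD3E was at 0 in all 4. PECAM1, an endothelial gene that leukocytes also express, had 113 counts in that library and at most 3 in the others. The other endothelial markers were not raised there, with CDH5 and KDR at 0 counts and VWF at 7 (14 in shCtrl replicate 2). The summed level of the 4 fibroblast markers was 9.29 to 16.3 CPM in all libraries. Nearly all of it was COL1A1, since DCN and LUM had 0 counts in every library and PDGFRA at most 0.098 CPM. Values of replicate 1 alone, which do not use shPML replicate 2, are therefore given beside the results for the 10 genes and for every other gene named as called.

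In shPML, YAP1 fell while WWTR1 rose, and 3 of the 4 TEAD genes fell together with ANKRD1. For the test, edgeR fitted a quasi-likelihood model that held the experiment as a block, so that shPML was compared with shCtrl within each replicate. A gene was called at an adjusted p (Benjamini-Hochberg, over all genes tested) under 0.05 and a log2 fold change beyond 0.5. By this rule 6 of the 10 genes were called, 1 higher and 5 lower, where 19.1% of all genes tested were called, 8.57% higher and 10.5% lower. The median log2 fold change was -0.60 over the 10 genes and 0.00 over all genes tested. Each of the 10 genes had a ratio of the same sign in both experiments. In replicate 1 alone, where the leukocyte genes were at or near 0, all 6 called genes moved in the called direction by more than 0.5, and in replicate 2 alone 5 did, with WWTR1 short of it.
The calls depended on the block. Without it, 0 of the 10 genes passed in edgeR's test, although 1 was higher and 6 were lower by unadjusted p under 0.05, and 3 passed in DESeq2 (YAP1, TEAD1 and TEAD3, all lower). That fit called 0.412% of all genes in edgeR, and unadjusted p under 0.05 was reached by 7.8% of genes that were higher and by 10.1% that were lower. The adjusted p without the block ran from 0.0727 for YAP1 to 0.253 for ANKRD1 among the 6 called genes, and over all alternatives from 4.6e-16 for TEAD1 to 0.79 for TEAD2 (both from edgeR's test). Leaving out any 1 of the 4 libraries, which also takes the block away, left 0 of the 10 genes called.

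**Figure D1:**
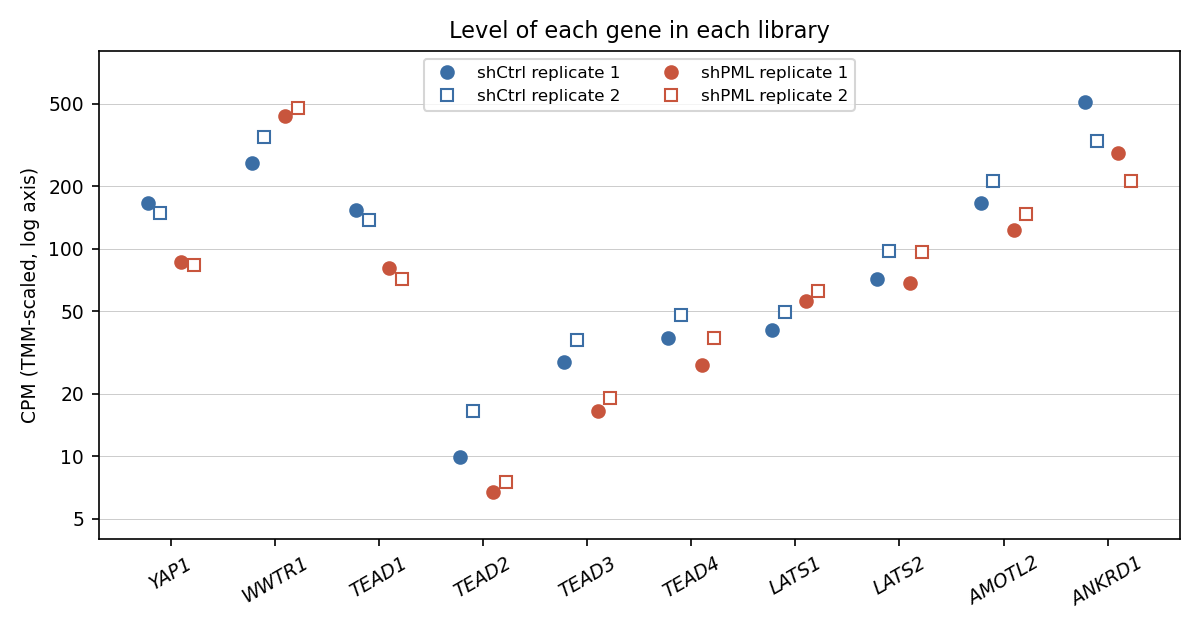
Level of each of the 10 genes in the 4 libraries, in CPM scaled by TMM on a log axis; blue marks are shCtrl and red marks shPML, filled circles replicate 1 and open squares replicate 2. Both red marks lie below both blue marks for YAP1, the 4 TEAD genes, AMOTL2 and ANKRD1, above them for WWTR1 and LATS1, and among them for LATS2.

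The coactivators moved in opposite directions. YAP1, on chromosome 11 from 102110447 to 102233424, was at 167 and 150 CPM in shCtrl replicates 1 and 2 and at 86.8 and 83.6 CPM in shPML. The shPML libraries were at 52.0% and 55.9% of their control, and the groups did not overlap. The log2 fold change of YAP1 was -0.89 ± 0.10 (SE, adjusted p = 3.0e-10), with -0.94 in replicate 1 and -0.83 in replicate 2. WWTR1, on chromosome 3 from 149517235 to 149703273, was at 259 and 345 CPM in shCtrl and at 439 and 475 CPM in shPML. Here both shPML libraries lay above both shCtrl libraries, although the shCtrl libraries differed by more than the shPML libraries did. Its log2 fold change was 0.61 ± 0.10 (SE, adjusted p = 7.9e-07), with 0.76 in replicate 1 and 0.46 in replicate 2.
Levels of different genes are comparable only per length, and TPM, counts divided by the summed exon length of the gene and scaled to the same total in each library, were used for this. Per length, WWTR1 exceeded YAP1 in all 4 libraries, by 1.63- and 2.43-fold in shCtrl and by 5.32- and 5.97-fold in shPML. The ratio of these TPM values was thus higher in shPML by 1.70 on the log2 scale in replicate 1 and by 1.30 in replicate 2. Since the rise of WWTR1 was the larger in TPM, the sum of both genes was not lower in shPML, at 261 and 279 TPM against 209 and 241 TPM in shCtrl.

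The TEAD factors provide the DNA-binding part of the complex. TEAD1, on chromosome 11 from 12674421 to 12944737, was at 154 and 137 CPM in shCtrl and at 80.9 and 71.4 CPM in shPML. It fell to nearly the same degree in both experiments, to 52.4% and 52.1% of the control. The log2 fold change of TEAD1 was -0.94 ± 0.11 (SE, adjusted p = 9.5e-11), with -0.93 in replicate 1 and -0.94 in replicate 2. TEAD3, on chromosome 6 from 35473597 to 35497079, was at 28.5 and 36.4 CPM in shCtrl and at 16.6 and 19.2 CPM in shPML, a log2 fold change of -0.85 ± 0.13 (SE, adjusted p = 2.6e-07). Replicate 1 alone gave -0.76 for TEAD3. TEAD2, on chromosome 19 from 49340595 to 49362457, had the lowest level of the 10 genes per length in all 4 libraries, as the TPM values given later show, and was at 9.94 and 16.6 CPM in shCtrl and 6.72 and 7.53 CPM in shPML. Its log2 fold change was -0.84 ± 0.18 (SE, adjusted p = 0.00014). The size of the fall of TEAD2 differed between the experiments, with -0.53 in replicate 1 and -1.09 in replicate 2, and without shCtrl replicate 2 and the block it was -0.49.
TEAD4, on chromosome 12 from 2959330 to 3040676, was not called. Its level was 37.3 and 47.9 CPM in shCtrl and 27.6 and 37.2 CPM in shPML, so the higher shPML library lay just under the lower shCtrl library. The log2 fold change of TEAD4 was -0.40 (standard error 0.12), with an adjusted p of 0.0078 in edgeR's test, short of the threshold on the fold change. Replicate 1 alone gave -0.43 for TEAD4. Without the block its value was -0.21 without shCtrl replicate 2 and -0.20 without shPML replicate 1, and DESeq2 with the block gave an adjusted p of 0.064.
Summed per length, the 4 TEAD genes were at 133 and 156 TPM in shCtrl and at 84.8 and 100.3 TPM in shPML. TEAD4 was the largest part of this sum in every library, at 41.6% and 45.1% in shCtrl and 48.4% and 55.6% in shPML. TEAD1 came next with 32.1% and 24.1% in shCtrl and 26.4% and 19.9% in shPML, followed by TEAD3, while TEAD2 gave 7.46% to 10.5%. These shares rest on exon lengths of 1808 bases for TEAD4 and 9694 bases for TEAD1, which count every annotated exon, also those that RCC4 may not use.

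**Figure D2:**
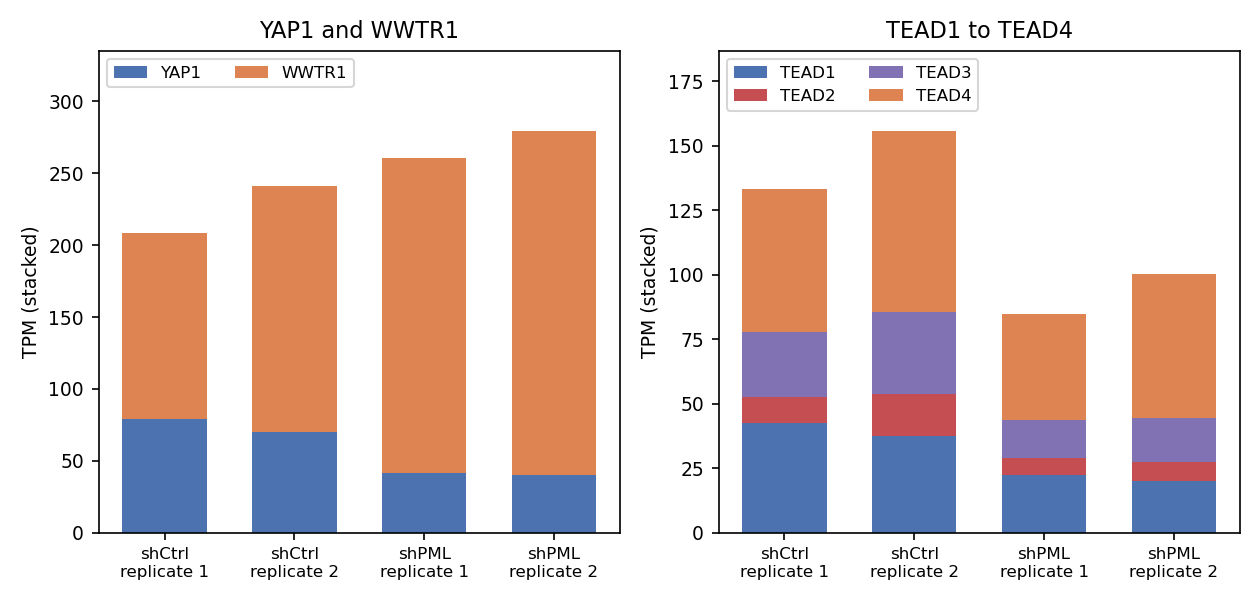
Stacked bars of TPM in each library for YAP1 and WWTR1 (left) and for TEAD1 to TEAD4 (right). The YAP1 part shrinks from 79.3 and 70.2 TPM in shCtrl to 41.3 and 40.1 TPM in shPML while the WWTR1 part grows, and the TEAD stack is lower in both shPML libraries.

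Of the LATS kinases, which restrain YAP and TAZ, neither was called. LATS1, on chromosome 6 from 149658153 to 149718105, was at 40.8 and 49.8 CPM in shCtrl and at 55.9 and 63.0 CPM in shPML. Both shPML libraries lay above both shCtrl libraries, and the log2 fold change of LATS1 was 0.40 ± 0.12 (SE, adjusted p = 0.0063), short of the threshold of 0.5. Replicate 1 alone gave 0.45 for LATS1. LATS2, on chromosome 13 from 20973036 to 21061586, was at 71.9 and 98.1 CPM in shCtrl and at 68.2 and 96.9 CPM in shPML. The libraries of LATS2 fell into pairs by experiment and not by hairpin, and the groups overlapped. Its log2 fold change was -0.05 ± 0.11 (SE, adjusted p = 0.80), while replicate 2 exceeded replicate 1 by 0.48 on the log2 scale ± 0.11 (SE, adjusted p = 0.00061, edgeR with the condition as a block). Replicate 1 alone gave -0.08 for LATS2. In TPM, LATS2 exceeded LATS1 by 2.42- and 2.70-fold in shCtrl and by 1.68- and 2.11-fold in shPML.

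The remaining 2 genes are targets of YAP and TAZ. ANKRD1, on chromosome 10 from 90912096 to 90921276, was at 507 and 330 CPM in shCtrl and at 290 and 213 CPM in shPML. It was the most abundant of the 10 genes per length, at 687 and 442 TPM in shCtrl, and both shPML libraries were below both shCtrl libraries. The log2 fold change of ANKRD1 was -0.72 ± 0.10 (SE, adjusted p = 1.3e-08), with -0.81 in replicate 1 and -0.63 in replicate 2. ANKRD1 also differed between the experiments and was lower in replicate 2. Its log2 difference from replicate 1 was -0.53 ± 0.10 (SE, adjusted p = 1.6e-05, edgeR with the condition as a block). ANKRD1 was the 1 member of 10 called for that difference, for which 13.5% of all genes were called. Its fold change without the block was -0.38 without shCtrl replicate 1 and -1.02 without shCtrl replicate 2.
AMOTL2, on chromosome 3 from 134355874 to 134375479, was at 167 and 211 CPM in shCtrl and at 124 and 146 CPM in shPML. The groups were apart, at 74.3% and 69.3% of the control of the same experiment. At a log2 fold change of -0.48 ± 0.10 (SE, adjusted p = 0.00011 in edgeR's test), AMOTL2 missed the threshold on the fold change and was not called. Replicate 1 alone gave -0.43 for AMOTL2, and without shCtrl replicate 2 and the block it was -0.31. With no threshold on the fold change, 9 of the 10 genes passed at an adjusted p under 0.05 (LATS2 was the exception), as did 30.2% of all genes tested.

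**Figure D3:**
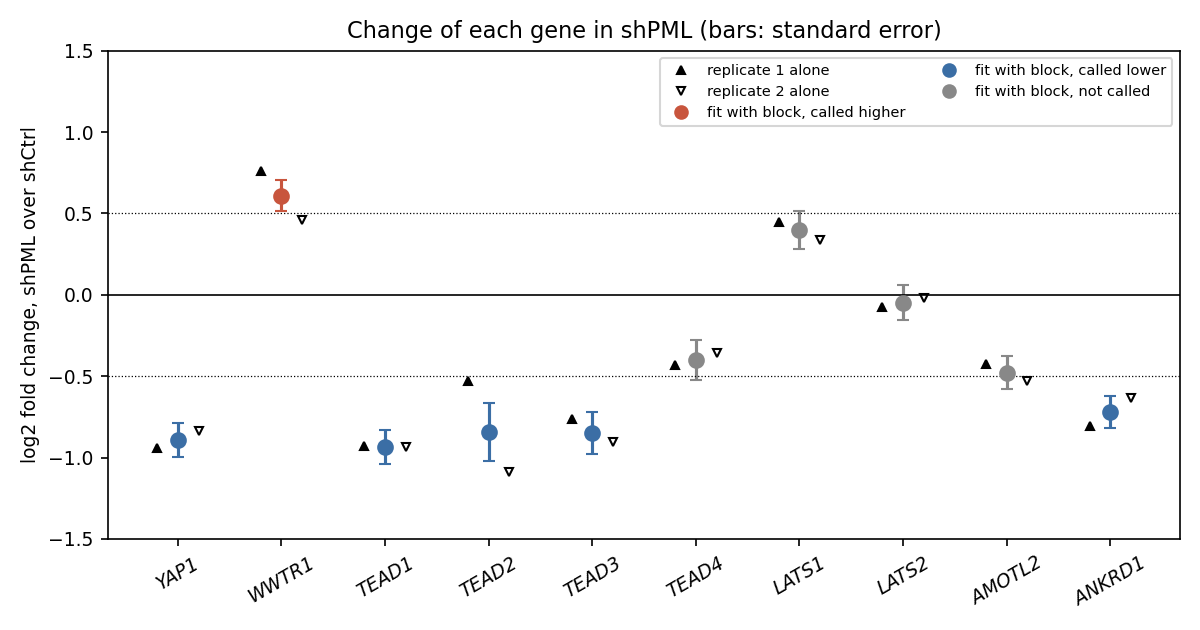
Log2 fold change of each gene in shPML over shCtrl from the fit with the experiment as a block (circles, bars give the standard error), with the ratio of replicate 1 alone (filled triangles) and replicate 2 alone (open triangles). The dotted lines mark the threshold of 0.5 in either direction. Both triangles lie on the same side of 0 for all 10 genes, and those of TEAD2 are the farthest apart, at -0.53 and -1.09.

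Over the libraries themselves, in CPM, 7 of the 10 genes had both shPML libraries below both shCtrl libraries and 2 had them above. Among all genes tested, 24.9% lay below and 23.1% above. For TEAD4 the gap was narrow, at 37.24 CPM in shPML replicate 2 against 37.34 CPM in shCtrl replicate 1. In TPM these libraries of TEAD4 overlapped, at 55.7 and 55.4 TPM. In bulk RNA, fewer cells that express a gene and less of its RNA per cell cannot be told apart. Ordered per length in shCtrl, the genes ran from ANKRD1 (mean 565 TPM) over WWTR1 (150 TPM), AMOTL2 (105 TPM), YAP1 (74.8 TPM), TEAD4 (62.8 TPM), LATS2 (40.9 TPM), TEAD1 (40.1 TPM), TEAD3 (28.4 TPM) and LATS1 (15.9 TPM) to TEAD2 (13.2 TPM). YAP1 and TEAD4 overlapped in shCtrl, as did LATS2 and TEAD1, and neither pair kept its order clearly in both libraries. LATS1 and TEAD2 overlapped between libraries, but LATS1 was the higher within each of the 4. In shPML, YAP1 (mean 40.7 TPM) could not be ordered against TEAD4 (48.4 TPM) or LATS2 (40.1 TPM). YAP1 was marginally above TEAD4 in replicate 1 (41.3 against 41.0 TPM) and below it in replicate 2 (40.1 against 55.7 TPM). LATS2 was below YAP1 in replicate 1 (33.03 TPM) and above it in replicate 2 (47.25 TPM). TEAD4 was above LATS2 in both shPML libraries. TEAD1 (21.2 TPM) and LATS1 (21.04 TPM) also swapped order between the shPML libraries. YAP1 shares 11.1% of its exon bases with AP000942.2 and WWTR1 shares 11.7% with WWTR1-AS1, both on the opposite strand. These genes had 230 and 102 counts in all against 22932 for YAP1 and 70927 for WWTR1. How reads of overlapping genes were assigned is not known, since the strand setting of the counting is not given in the sources used here.

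The other genes of the pathway were taken from 5 lists written from general knowledge. In the kinase core of 8 genes, which holds LATS1 and LATS2, 0 genes were called higher and 2 lower, which is 25% of the list lower where 10.5% of all genes were. MOB1A, a coactivator of the LATS kinases, was at 116 and 183 CPM in shCtrl and at 63.7 and 79.9 CPM in shPML, a log2 fold change of -1.03 ± 0.11 (SE, adjusted p = 1.2e-11). SAV1, the scaffold of the MST kinases, was at 34.3 and 41.1 CPM in shCtrl and at 21.4 and 26.04 CPM in shPML (log2 fold change -0.67, standard error 0.12). Replicate 1 alone gave -0.85 for MOB1A and -0.66 for SAV1. The kinase genes STK4 (MST1) and STK3 (MST2) were not called, with log2 fold changes of 0.38 and -0.24, nor were MOB1B (0.14) and NF2 (0.28), which encodes the upstream activator merlin. NF2 differed by 0.64 between replicate 2 and replicate 1, and without the block its fold change was -0.06 without shPML replicate 2.
Of 30 upstream regulators 29 were tested, of which 4 were called higher and 4 lower. Each is 13.8% of the list, beside 8.57% higher and 10.5% lower among all genes. Among those higher, TNIK, MINK1 and MAP4K4 encode MAP4K kinases that can phosphorylate LATS directly, and FAT4 encodes an atypical cadherin. TNIK rose from 80.7 and 78.9 CPM to 164 and 160 CPM, a log2 fold change of 1.02 ± 0.10 (SE, adjusted p = 4.1e-12), with 1.02 in replicate 1. MINK1 changed by 0.90, FAT4 by 0.82 and MAP4K4 by 0.51 on the log2 scale, with 0.74, 0.78 and 0.48 in replicate 1 alone. The other 4 members of the kinase family on the list, MAP4K1, MAP4K2, MAP4K3 and MAP4K5, were not called. The genes lower were CRB3 (polarity protein, -0.84), WTIP (an Ajuba-family inhibitor of LATS, -0.76), RASSF1 (a scaffold that binds the MST kinases, -0.67) and WWC2 (a KIBRA-family scaffold, -0.55), with -0.84, -0.93, -0.63 and -0.57 in replicate 1 alone. Libraries of WTIP overlapped between the groups, and those of the other 7 called genes did not. With 1 library and the block left out, the fold change of FAT4 ran from 0.43 without shPML replicate 1, with 0.50 without shCtrl replicate 2, to 1.25 without shCtrl replicate 1. That of WTIP ran from -1.33 without shPML replicate 2 to -0.25 without shPML replicate 1, with -0.35 without shCtrl replicate 2, and that of MINK1 was 0.59 without shPML replicate 2. AMOT and AMOTL1, the relatives of AMOTL2, were not called, with log2 fold changes of -0.34 and -0.08.
The STRIPAK complex carries the phosphatase that switches off the MST kinases. Of its 17 genes 0 were called higher and 2 lower, 11.8% of the list and close to the 10.5% of all genes. These were STK24 (a kinase of the complex, -0.84) and CTTNBP2NL (-0.66), with -0.74 and -0.67 in replicate 1 alone. Of the 8 TEAD cofactors and genes of YAP and TAZ turnover, 5 were tested and 1 was called, higher, where 8.57% of all genes were. VGLL4, which competes with YAP and TAZ for TEAD factors, was at 28.5 and 37.6 CPM in shCtrl and at 59.5 and 75.1 CPM in shPML. Its log2 fold change was 1.03 ± 0.12 (SE, adjusted p = 1.6e-10), with 1.05 in replicate 1 and 0.99 in replicate 2. VGLL1 and VGLL2 had 0 counts in every library, where a count of 0 allows up to 3, and VGLL3 had 4 counts in shCtrl replicate 1 only.

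**Figure D4:**
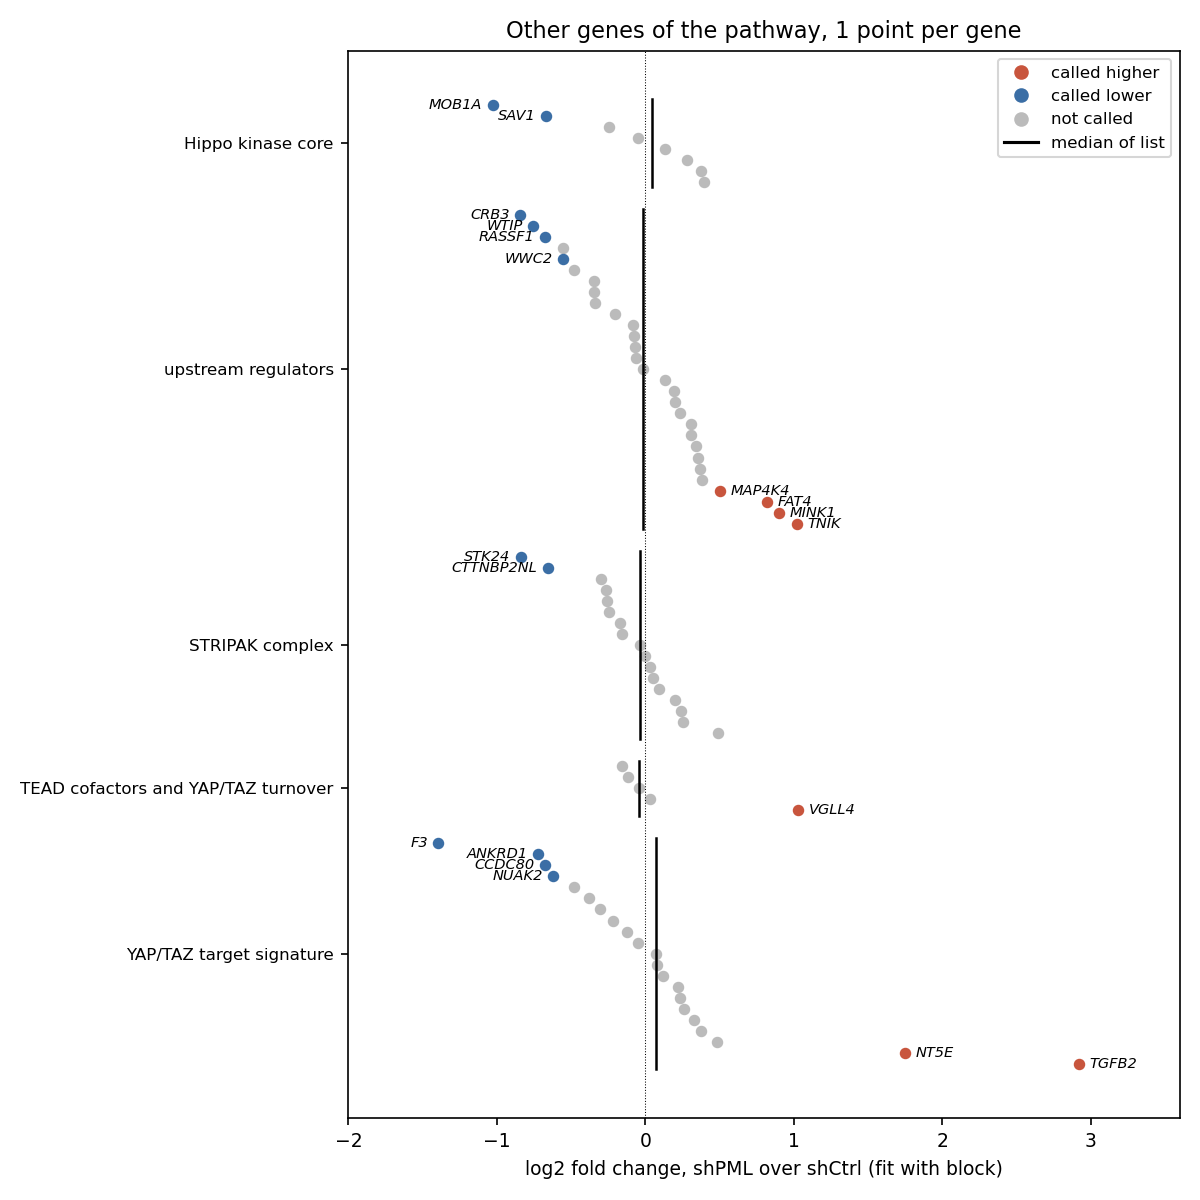
Log2 fold change in shPML over shCtrl of each tested gene of the 5 pathway lists, 1 point per gene, ordered within each list; red points were called higher, blue points lower and grey points were not called, and the black line is the median of the list. The medians lie between -0.04 and 0.07, and called genes stand at both ends of the upstream and target lists.

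The target signature, 22 genes of which AMOTL2, LATS2 and ANKRD1 are members described above, did not move one way. Of the 21 tested, 2 were called higher and 4 lower, which is 9.52% and 19% beside 8.57% and 10.5% of all genes. The median log2 fold change was 0.07, with 0.01 in replicate 1 and 0.00 in replicate 2. Lower besides ANKRD1 were F3, CCDC80 and NUAK2. F3, which encodes tissue factor, the trigger of coagulation, was at 58.9 and 122 CPM in shCtrl and at 31.0 and 33.2 CPM in shPML (log2 fold change -1.40, standard error 0.13, adjusted p = 4.8e-13). F3 fell by 0.92 in replicate 1 and by 1.86 in replicate 2 on the log2 scale, and without shCtrl replicate 2 and the block its change was -0.88. CCDC80, a matrix protein, and NUAK2, a kinase, changed by -0.68 and -0.62, with -0.39 and -0.56 in replicate 1 alone and, for NUAK2, -0.38 without shCtrl replicate 2 and the block.
Higher was NT5E, which encodes the ecto-nucleotidase CD73. It rose from 55.2 and 39.8 CPM to 155 and 162 CPM, a log2 fold change of 1.75 ± 0.12 (SE, adjusted p = 2.6e-19), with 1.48 in replicate 1 and 2.01 in replicate 2. TGFB2, a growth factor gene, was also called higher, from 2 and 6 counts in shCtrl to 33 and 26 counts in shPML, and at so few reads its fold change is imprecise (2.92, standard error 0.91). TGFB2 was not called by DESeq2 with the block and did not pass a minimum of 10 counts in every library, and replicate 1 alone gave 0.84 on the scale of log2(CPM + 0.5). The textbook targets CCN1 and CCN2 were not called. CCN1 was at 1229 and 1457 CPM in shCtrl and at 1097 and 1211 CPM in shPML (log2 fold change -0.22, adjusted p = 0.056 in edgeR's test), and CCN2, whose promoter is shown above, was at 46.0 and 44.4 CPM in shCtrl and at 62.8 and 63.7 CPM in shPML (0.48, adjusted p = 0.00074). Without shCtrl replicate 2 and the block the value of CCN1 was -0.10. CCN2 and ANKRD1 therefore had fold changes of opposite sign, and both promoters hold the TEAD core more than once. Of the 16 target genes with a RefSeq promoter window 9 held the core in at least 1 window, where 16.7% of all genes with a window did. Among the 9 were the called genes ANKRD1, NUAK2 and TGFB2, and FOXF2, which had 0 counts in every library. The windows of the called genes F3, CCDC80 and NT5E did not hold it, nor did those of MYOF, IGFBP3, FJX1 and RBMS3. CCN1, ASAP1, CRIM1, GADD45A, DOCK5 and ARHGEF17 had no window. AXL, a receptor tyrosine kinase, MYOF and PTPN14 had log2 fold changes of 0.38, 0.22 and 0.23 and were not called. Without the block these were 0.21 without shPML replicate 2 for AXL, and 0.084 and 0.093 without shCtrl replicate 2 for MYOF and PTPN14. Without the block, 0 genes of the 5 lists were called in edgeR's test, with adjusted p from 0.052 for NT5E upward. By unadjusted p under 0.05, 3 target genes were then higher and 5 lower, as were 3 and 4 of the upstream regulators, beside the 7.8% higher and 10.1% lower of all genes.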

How the data were processed

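RNA of RCC4 cells was sequenced from 2 shCtrl and 2 shPML libraries. The authors prepared stranded mRNA libraries, trimmed single-end reads with Trimmomatic 0.39, mapped them to GRCh38 with STAR and assigned them to Gencode genes with featureCounts 1.6.4. The deposited values are raw counts for 59050 genes, without normalization. Columns were matched to samples by name, and the shCtrl and shPML columns without a number were taken as replicate 1. The gene lengths in the same table were used for TPM. Groups follow the corrected labels of an update to the record.

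Counts were analysed with edgeR 4.0.16 and DESeq2 1.42.0 in R 4.3.3, and in Python 3.11.15 with pandas 2.3.3. Genes were kept with filterByExpr (16516), normalized by TMM and tested with edgeR's quasi-likelihood test. The experiment entered as a block because shPML was to be compared with shCtrl within each replicate and the methods describe 2 experiments. The labels do not say that a shared number marks a shared experiment. Replicate 1 deviations from the group means correlated at 0.603 across genes (not independent of each other). The common dispersion was 0.0137 with the block and 0.0813 without it. With 4 libraries the block leaves 1 residual degree of freedom, so its p-values lean on the spread shared across genes. Ratios within 1 replicate used CPM plus 0.5. An exact permutation test of 2 against 2 has a smallest two-sided p of 0.333, so none was run. The fits were tested on data drawn with known changes. Alternatives were no block, DESeq2, RLE, other count filters and fold change thresholds, and libraries left out. The genes, lists and fits were chosen with earlier results of these data known. The named genes are the 10 members, PML, the genes called in each list (up to 8) and a fixed set of pathway genes. One leukocyte marker is not reported here.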

Additional observations from a re-analysis of the deposited data

How the results depend on the processing

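The calls rest on the experiment as a block and on the fold change threshold, and the numbers alone do not show that the replicates are pairs. Without the replicate block, edgeR called 13 genes higher and 55 lower of all genes (1415 and 1735 with it), 0 and 0 of the 10 members, and 0 in each pathway list. DESeq2 without the block called 545 and 850 genes, with 0 members higher and 3 lower. In the lists this fit called 0 and 1 of the kinase core, and 2 and 0 of the upstream regulators. It called 0 and 2 of the STRIPAK genes, 1 and 0 of the TEAD cofactors, and 1 and 1 of the target signature. DESeq2 with the block called 1000 and 1294 genes and 1 target gene higher, with TGFB2 lost. A minimum of 10 counts in every library removed TGFB2 and also left 1 target gene higher. RLE normalization and that minimum each called 1 STRIPAK gene higher, SIKE1, whose log2 fold change was 0.49 before. With no fold change threshold 2391 and 2600 genes passed, with 2 members higher and 7 lower, 3 kinase core genes higher and 2 lower, 8 upstream regulators higher and 6 lower, 1 STRIPAK gene higher and 3 lower, 1 TEAD cofactor higher, and 5 target genes higher and 7 lower. With a threshold of 1 on the log2 scale 550 and 646 passed, with 0 members, 1 kinase core gene lower, 1 upstream regulator higher and 0 lower, 0 STRIPAK genes, 1 TEAD cofactor higher, and 2 target genes higher and 1 lower. In DESeq2 with the block, RLE and both other filters on counts, each of the 6 called members was called again.

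Each library left out in turn leaves 1 sample in a group, without the block, and that sample is assumed to vary like the others. Over these 4 fits 0 to 187 genes were called higher and 0 to 61 lower, with 0 members, and in the lists 0 to 1 genes. Fold changes that turned direction belonged to genes not called. LATS2 was at 0.19 without shCtrl replicate 2 and 0.18 without shPML replicate 1, over a range of -0.32 to 0.19. AMOTL1 ran from -0.24 to 0.10, the latter without shCtrl replicate 1. MOB1B ran from -0.12 without shPML replicate 2, with -0.085 without shCtrl replicate 1, to 0.40. NF2 ran from -0.057 without shPML replicate 2, with -0.0028 without shCtrl replicate 1, to 0.64. PML was at -0.40 without shCtrl replicate 2 or shPML replicate 1 and at -1.06 without shPML replicate 2. The cause of these shifts was not tested. The shallowest library, shPML replicate 2, held 27781193 reads, and TEAD2 had the fewest reads of the members there, 207. How far depth limited the results was not tested.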
